A study of Mus musculus with 4 samples.

Results

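The T cell receptor alpha V genes, whose symbols start with Trav, were examined in resting CD4 T cells of mice with and without the Ifitm gene family. A probe set, the group of probes that an array reports as 1 value, was taken as a member where the platform annotation names exactly 1 gene and its symbol starts with Trav. This rule found 7 of 34760 probe sets, which stand for 6 genes: Trav7d-4, Trav7n-5, Trav12-2, Trav13-5, Trav19 and, with 2 probe sets, Trav14-1. A further 25 probe sets list several Trav genes each and cannot be assigned to a single one. They were kept apart as the nearest comparison. The gene table of the assembly GRCm38.p6 holds 130 Trav genes, so most V segments of the locus were not measured under their own name here.

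The T cell receptor of most CD4 T cells is a pair of an alpha and a beta chain. In the thymus, each developing cell joins 1 of its many alpha V segments to a J segment, and the V segment encodes much of the part of the chain that contacts peptide and MHC. RNA of a V segment in a population of T cells comes mainly from the cells that joined it. The mouse locus holds stretches that were copied during evolution, and the letters d and n in a gene name mark segments of the copied stretches. Copies of a family are close in sequence, so a probe set may also bind transcripts of a copy it is not named for. In bulk RNA, fewer cells with a segment and less of its RNA per cell cannot be told apart. An array value also depends on how well the probes match the transcript. Whether V segment sequences differ between the mouse groups was not tested.

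RNA of splenic CD4 T cells from WT mice (2 arrays) and from IfitmF-/- mice (2 arrays), which the labels call Ifitm-/- and which lack the entire Ifitm family, was measured on Affymetrix Mouse Gene 1.0 ST arrays. The mice were adults of 6 to 8 weeks, the cells were untreated and were enriched by negative selection, and each array held cells pooled from a pair of mice. The deletion was carried in all cells of the animal, on a C57BL/6 background per the study's methods. The strain source of the WT mice used for the arrays was not given in the sources used here. Replicates were biological and were purified separately.

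The labels were checked first. All 6 probe sets of Ifitm1, Ifitm2 and Ifitm3 were called lower in IfitmF-/- cells, with changes of -4.60 to -1.02 on the log2 scale. Xist, transcribed from the inactive X of females, fell by 6.64 log2 units (WT mean 11.29, IfitmF-/- mean 4.64), while Eif2s3y, Uty and Kdm5d on the Y chromosome rose by 5.57, 4.89 and 3.71. Sex and genotype therefore cannot be told apart in any comparison that follows. The marker of the selected cells, Cd4, was bright on all 4 arrays (mean log2 intensity 11.48 in WT and 11.75 in IfitmF-/- cells; adjusted p = 0.141).

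Probe sets named for Trav14-1 and Trav7n-5 were far higher in IfitmF-/- than in WT cells. Those of the other 4 genes were not called in either direction. The 3 probe sets of Trav14-1 and Trav7n-5 rose by 1.76 to 4.27 log2 units. Their largest rises start from dim WT values, and a probe set may also bind transcripts of a copy. Of the 7 probe sets, 3 were called higher and 0 lower by limma, at an adjusted p under 0.05. Over all probe sets 4.48% were called higher and 3.95% lower. The 3 calls come from 2 genes. At an unadjusted p under 0.05, limma passed 5 of the 7, compared with 26.4% of all probe sets. The changes of the 7 spanned -0.72 to 4.27, with a median of 0.97, compared with a median of -0.016 over all probe sets. The median of the 7 counts Trav14-1 with 2 probe sets and is the value of Trav12-2, which was not called.

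**Figure D1:**
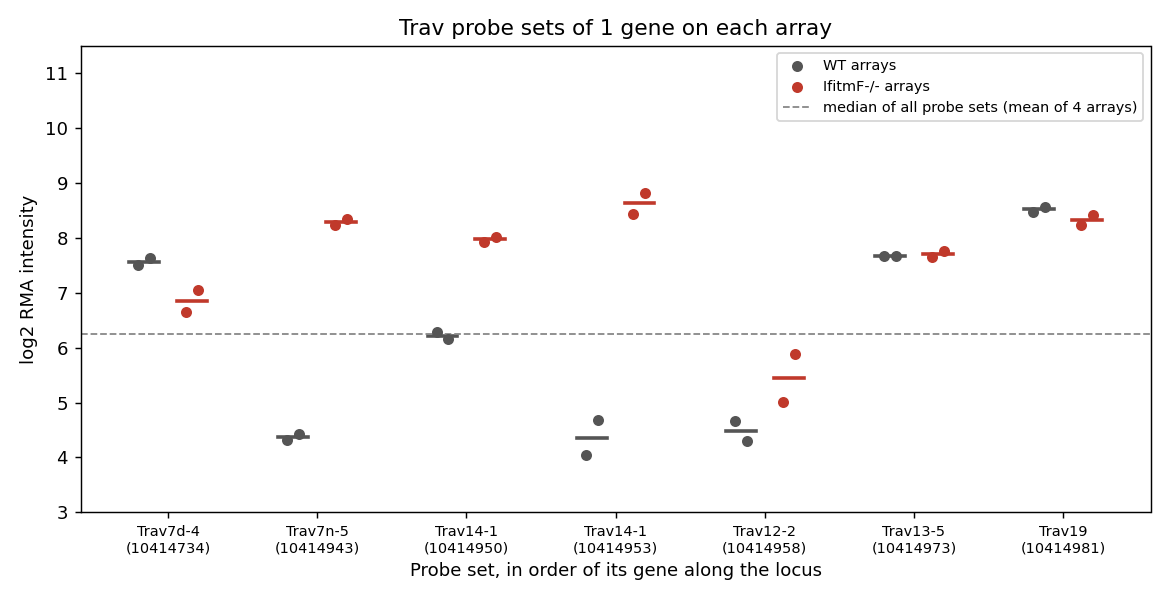
Log2 RMA intensity (y axis) of the 7 Trav probe sets (x axis, in the order of their genes along the locus, probe set number in brackets) on the WT arrays (grey points) and the IfitmF-/- arrays (red points); short bars are group means and the dashed line is the median of all probe sets. Trav7n-5 and both Trav14-1 probe sets part the genotypes widely, while the arrays of Trav13-5 overlap.

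Trav7n-5, a segment of family 7 from an n copy, had log2 intensities of 4.31 and 4.44 in WT cells, against 8.24 and 8.35 in IfitmF-/- cells (probe set 10414943). On the linear scale these are 19.9 and 21.7 against 302 and 327. Both IfitmF-/- arrays lay 3.80 log2 units or more above both WT arrays, and the arrays of a genotype differed by little (WT 4.37 ± 0.09, IfitmF-/- 8.30 ± 0.08, mean and SD, n = 2). The rise was 3.92 (SE 0.10, 95% interval 3.67 to 4.18; adjusted p = 0.00699), a 15.2-fold difference. In WT cells this probe set was among the dim ones, with 13.4% and 15.4% of probe sets on the array dimmer, compared with 77.3% and 78.2% in IfitmF-/- cells. No detection call was used here, and a fold set against so dim a value is not exact.

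Trav14-1, of family 14, was represented by 2 probe sets that rose by different amounts. The first (10414953) was at 4.05 and 4.68 in WT cells and at 8.44 and 8.83 in IfitmF-/- cells. This is a rise of 4.27 (SE 0.26, 95% interval 3.57 to 4.97; adjusted p = 0.0131), or 19.3-fold on the linear scale from 16.5 and 25.6 to 348 and 454. Its WT arrays lay apart by more than those of the other called probe sets (SD 0.45, n = 2), and 9.20% and 19.6% of probe sets were dimmer there.

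The second Trav14-1 probe set (10414950) was at 6.28 and 6.16 in WT cells and at 7.93 and 8.02 in IfitmF-/- cells. Its rise of 1.76 (SE 0.09, 95% interval 1.51 to 2.0; adjusted p = 0.0115) is 3.38-fold. The WT level of this probe set lay in the middle of the array, where 50.2% and 47.5% of probe sets were dimmer. For both probe sets the genotypes did not overlap. Their 95% intervals do not overlap either, but the difference between the 2 rises was not tested. For a single probe set, an exact permutation test of 2 against 2 arrays cannot go below a two-sided p of 0.333.

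By rank of the log2 change, 4 of the 34760 probe sets rose by more than Trav14-1 (10414953), among them the Y-linked Eif2s3y and Uty, and Trav7n-5 came next. Both ranks are set against dim WT values without a detection call and are not exact. The second Trav14-1 probe set, with WT values near the array median, was at rank 66. With the further filter of the study's methods, which keeps calls with more than a 2-fold change whose linear values span 250 units or more, 2 of the 7 probe sets remained. These were Trav7n-5, with a range of 307 units, and Trav14-1 (10414953), with 437, whereas the second Trav14-1 probe set spanned 188. That filter retained 0.403% of all probe sets as higher and 0.757% as lower.

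**Figure D2:**
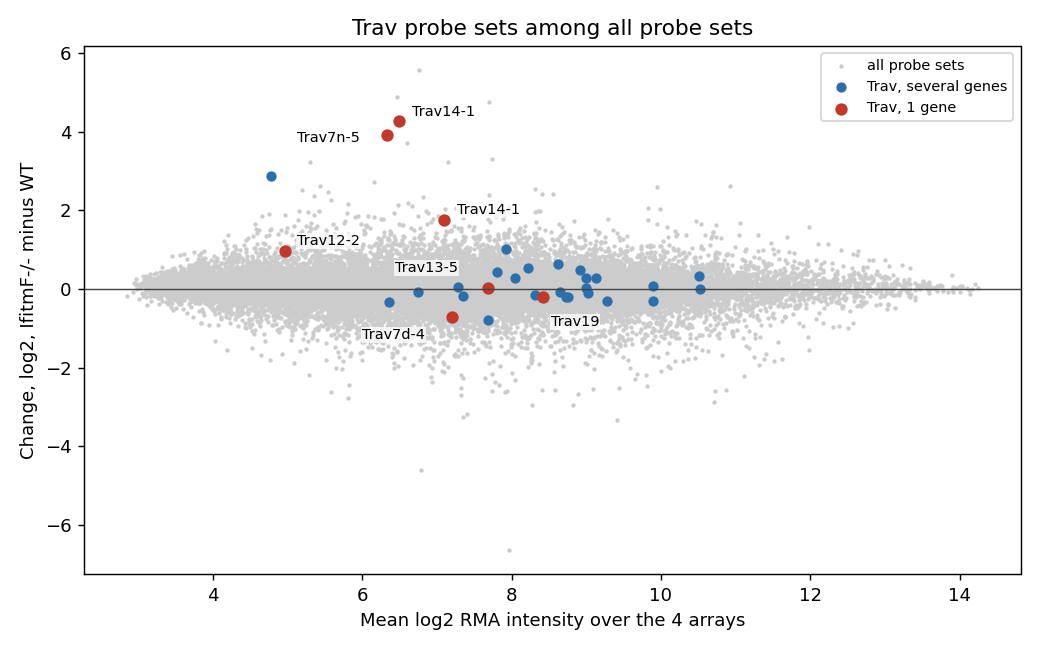
The y axis gives the log2 change, IfitmF-/- minus WT, and the x axis the mean log2 RMA intensity on all arrays; grey points are all 34760 probe sets, red points the 7 Trav probe sets of 1 gene and blue points the 25 that list several Trav genes. Trav14-1 (4.27) and Trav7n-5 (3.92) lie above nearly all other probe sets, while most blue points lie near 0.

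Trav12-2, of family 12, was dim in both genotypes. Its probe set (10414958) was at 4.66 and 4.30 in WT cells and at 5.01 and 5.89 in IfitmF-/- cells. The IfitmF-/- arrays lay above the WT arrays but differed from each other by more than their distance of 0.35 to WT. The change of 0.97 (SE 0.33, 95% interval 0.09 to 1.85) was not called (adjusted p = 0.16). Without IfitmF-/- replicate 2 it was 0.53, and without IfitmF-/- replicate 1 it was 1.41.

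Trav7d-4 belongs to family 7 like Trav7n-5, but comes from a d copy and had a change of the opposite sign. It was at 7.5 and 7.63 in WT cells and at 6.65 and 7.05 in IfitmF-/- cells (probe set 10414734), so the genotypes did not overlap. The change of -0.72 (SE 0.16, 95% interval -1.15 to -0.28) missed the threshold (adjusted p = 0.0756). It passed when fewer probe sets were tested, with an adjusted p of 0.0404 over probe sets of 1 gene and 0.0448 without dim probe sets. The 95% intervals of the 2 family members lay on opposite sides of 0, and the difference between them was not tested.

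Trav13-5 and Trav19 lie near the end of the V segments that is closest to the J segments, and both differed little between the genotypes. Trav13-5 was at 7.68 and 7.67 in WT cells and at 7.65 and 7.76 in IfitmF-/- cells (probe set 10414973). The arrays overlapped, and the change of 0.030 had a 95% interval of -0.20 to 0.25 (adjusted p = 0.86). Trav19 was at 8.48 and 8.57 in WT cells and at 8.23 and 8.43 in IfitmF-/- cells (probe set 10414981). Its genotypes did not overlap, but the change of -0.20 (95% interval -0.48 to 0.08; adjusted p = 0.32) was of the order of the spread between arrays (SD 0.06 in WT and 0.14 in IfitmF-/- cells, n = 2). Both intervals end far below the changes of Trav14-1 and Trav7n-5.

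Counted by overlap alone, 4 of the 7 probe sets had both IfitmF-/- arrays above both WT arrays and 2 had both below, compared with 27.5% and 30.0% of all probe sets. The distance between the nearest arrays of the genotypes was 1.65 to 3.80 log2 units for the 3 called probe sets and 0.055 to 0.45 for the other 3 without overlap.

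Of the 25 probe sets that list several Trav genes, 3 were called higher and 1 lower by limma, and their median change was 0.022, with a range of -0.78 to 2.87. These 4 calls of 25 stand beside 8.43% of all probe sets called in either direction. The median near 0 covers changes of both signs. In 11 both IfitmF-/- arrays lay above both WT arrays and in 9 below, and 14 had an unadjusted p under 0.05, compared with 27.5%, 30.0% and 26.4% of all probe sets. The one with the steepest rise (10414909), which lists 2 genes, was at 3.28 and 3.42 in WT cells and at 6.10 and 6.34 in IfitmF-/- cells, a rise of 2.87 (adjusted p = 0.0101). Its genotypes did not overlap, and its WT values were again very dim, with its linear range of 71.3 units far under that of Trav7n-5. The remaining rises were 1.01 (adjusted p = 0.0265) and 0.53 (adjusted p = 0.0397), and the fall was -0.78 (adjusted p = 0.0428).

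**Figure D3:**
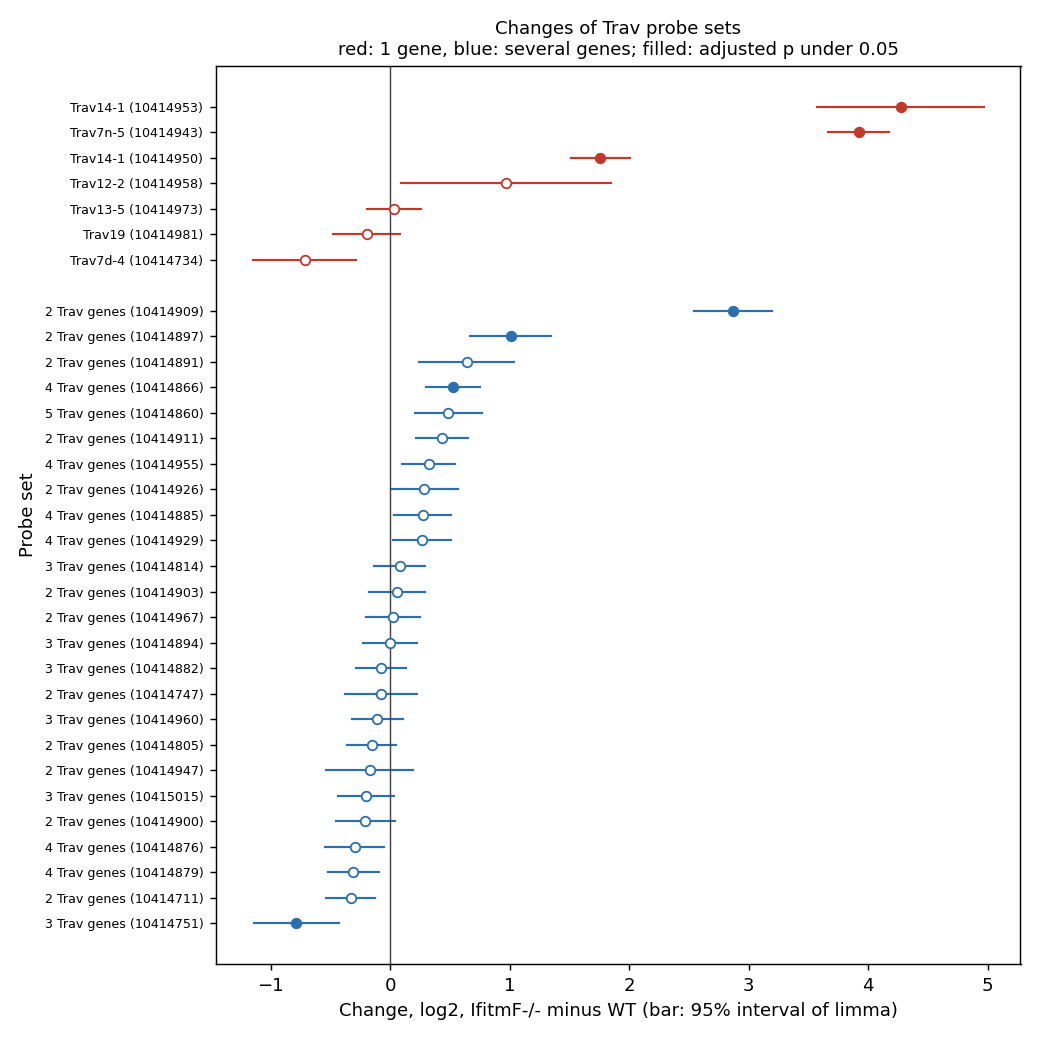
Change (x axis, log2, IfitmF-/- minus WT) with its 95% interval from limma for the 7 Trav probe sets of 1 gene (red) and the 25 that list several Trav genes (blue, with the number of genes listed); filled points have an adjusted p under 0.05. Filled points are 3 of the 7 red and 4 of the 25 blue, and the blue ones centre on 0.022.

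Some of these probe sets list a member's gene beside others and share transcript records with its probe set. The one that lists Trav14-1 with 4 other Trav genes (10414860) had a change of 0.49 (95% interval 0.21 to 0.76; adjusted p = 0.0672), and its genotypes did not overlap. This value is under those of both Trav14-1 probe sets. The 2 that list Trav12-2 had changes of -0.31 and -0.30 (adjusted p = 0.0964 and 0.138), of the opposite sign to the Trav12-2 probe set itself. Of the 3 that list Trav13-5, 1 was called, with the fall of -0.78, and the others had changes of -0.11 and -0.08. The one that lists Trav7d-4 had a change of 0.27 (adjusted p = 0.156), again opposite in sign to its member. Which transcripts each of these probe sets binds was not tested.

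The genes are spread along the locus on chromosome 14. In the order of the 130 Trav genes of GRCm38.p6, Trav7d-4 is number 14, between Trav6d-4 and Trav8d-1, and Trav7n-5 is number 55, between Trav11n and Trav12n-1. Trav14-1 is number 98, between Trav13-1 and Trav15-1-dv6-1, Trav12-2 is number 104, Trav13-5 number 123 and Trav19 number 126. The genes whose probe sets were called higher, Trav7n-5 and Trav14-1, are not neighbours in this order. Trav7d-4 precedes both, Trav12-2, Trav13-5 and Trav19 follow both, and no member lies between them.

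Genes on both sides of the locus were set beside them. Of the 10 nearest measured genes before the V segments, 1 rose, Rab2b, which encodes a small GTPase (0.67; adjusted p = 0.0338). Another, Tox4, which encodes a chromatin-binding protein, fell by 0.68 (adjusted p = 0.0286), and the median change of the 10 was 0.07. These 2 calls of 10 stand beside 8.43% of all probe sets called in either direction. In limma, 4 of the 10 had an unadjusted p under 0.05, compared with 26.4% of all probe sets. Of the 10 nearest measured genes after the constant segment Trac, 0 were called in limma and 1 had an unadjusted p under 0.05, with changes of -0.30 to 0.29. All 20 flanking genes changed by less than 1 log2 unit.

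Other parts of the receptor were measured in small numbers. Outside Trav, 3 probe sets name 1 receptor segment each. Trbv1, a V segment of the beta chain, was at 10.27 and 10.43 in WT cells and at 11.16 and 11.14 in IfitmF-/- cells and rose by 0.80 (adjusted p = 0.0231). Trgv1 of the gamma chain (0.35; adjusted p = 0.255) and Trdv2-2 of the delta chain (0.29; adjusted p = 0.426) were not called. A further 4 probe sets list several receptor segments outside Trav, with a median change of 0.57. By limma, 1 of these was called higher (0.57; adjusted p = 0.0425) and 0 lower, beside 4.48% and 3.95% of all probe sets. In 3 of them both IfitmF-/- arrays lay above both WT arrays, compared with 27.5% of all probe sets. The constant segments were not analysed here, since no probe set names one of them alone.

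The CD3 chains carry the signal of the receptor into the cell. Of the 4 genes, Cd3d and Cd3g each rose by 0.59 (adjusted p = 0.0284 and 0.0304), while Cd247 had a change of 0.33 (adjusted p = 0.116) and Cd3e of -0.01 (adjusted p = 0.962). The 2 calls of 4, both higher, stand beside 4.48% of all probe sets called higher. The changes of the CD3 chains are far under those of Trav14-1 and Trav7n-5. Of 10 measured genes of V(D)J recombination, which joins the segments in the thymus, 2 rose and 0 fell, beside 4.48% higher and 3.95% lower over all probe sets, with a median change of 0.32. Lig4, the ligase that seals the broken ends, rose by 0.79 and its partner Xrcc4 by 0.55 (adjusted p = 0.0338 and 0.0378). Xrcc6 and Prkdc, which encode parts of the kinase complex that binds broken ends, had changes of 0.40 and 0.37 (adjusted p = 0.0651 and 0.0722). Rag1, Rag2, Dntt and Ptcra, also on this list, were dim, with WT means of 5.08, 3.92, 5.20 and 5.49. Their changes of 0.22, -0.12, 0.37 and -0.10 were not called (adjusted p = 0.209, 0.406, 0.183 and 0.641).

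The makeup of the preparations was read from cell type markers, whose part in the Trav results was not tested. Of 10 T cell markers 9 were measured, of which 4 rose, Cd3d and Cd3g of the CD3 chains among them, and Cd28 fell. Over all probe sets 4.48% were called higher and 3.95% lower. The summed linear intensity of the 9 markers was 19928 to 20467 in WT cells against 21917 to 22319 in IfitmF-/- cells. Invariant NKT cells carry a fixed alpha chain that uses Trav11, which no probe set names alone. Of the 2 markers of these cells that were measured, the transcription factor gene Zbtb16 fell by 0.92 (adjusted p = 0.0262) and Klrb1c, also on the NK cell list, had a change of 0.58 (adjusted p = 0.0837), and their summed intensity was 438 to 476 in WT cells against 342 to 379 in IfitmF-/- cells. CD8 T cells use the same V segments as CD4 T cells. Their markers Cd8a and Cd8b1 summed to 341 to 504 in WT cells against 425 to 435 in IfitmF-/- cells, and neither was called. Both IfitmF-/- arrays of Cd8a lay below both WT arrays (-0.55; adjusted p = 0.167), as for 30.0% of all probe sets. The arrays of Cd8b1 overlapped (0.18; adjusted p = 0.643).

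The NK cell, plasma cell and erythroid lists had 0 called members in limma, beside 8.43% of all probe sets called in either direction. The sums of these lists did not overlap between the genotypes. Of all single probe sets, 27.5% had both IfitmF-/- arrays above both WT arrays and 30.0% had both below. Such shares were not computed for sums. At an unadjusted p under 0.05, limma passed 3 of 6, 3 of 3 and 0 of 2 members of the lists, compared with 26.4% of all probe sets. The summed intensity of 6 NK cell markers was 881 to 1164 in WT cells against 1240 to 1513 in IfitmF-/- cells, that of 3 plasma cell markers 2376 to 3573 and 1661 to 1814, and that of the 2 measured of 5 erythroid markers 2448 to 3343 and 4934 to 5437. Of the NK cell markers, Klrd1 had the largest change (1.11; adjusted p = 0.0683), and Klrb1c and Ncr1 also did not overlap. The arrays of Prf1, Gzma and Klre1 overlapped, with changes of 0.02, -0.30 and 0.18. The erythroid difference lay in Slc4a1 (1.68; adjusted p = 0.209), while the arrays of Alas2 overlapped (-0.0035; adjusted p = 0.996). Of 4 regulatory T cell markers Il2ra rose and Ctla4 fell, beside 4.48% of all probe sets called higher and 3.95% lower. Foxp3 (0.23; adjusted p = 0.161) and Ikzf2 (-0.42; adjusted p = 0.11) were not called. The sums were 4472 to 4931 and 3342 to 3518. This difference lay mainly in Ctla4, at 2167 and 2574 in WT cells against 828 and 876 in IfitmF-/- cells, while Il2ra and Foxp3 changed upward. Sums of B cell markers (7 of 8 measured; 3152 to 8780 and 2564 to 4239) and myeloid markers (5; 1828 to 3247 and 2165 to 4220) overlapped. Among the myeloid markers, both IfitmF-/- arrays of Lyz2 lay above both WT arrays (1.34; adjusted p = 0.0942). The arrays of Csf1r, Cd14, Itgam and Adgre1 overlapped. Of 3 gamma delta T cell markers only Sox13 was measured, with a change of -0.11 (adjusted p = 0.496).

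The calls of Trav14-1 and Trav7n-5 needed all 4 arrays, while the size of their changes did not. Leaving out any 1 array ended every call on the arrays, so that 0 of 34760 probe sets passed an adjusted p of 0.05 in limma and 6062 to 9107 passed an unadjusted p of 0.05. The change of Trav7n-5 was then 3.86 to 3.98, that of Trav14-1 3.96 to 4.59 for the first probe set (10414953) and 1.70 to 1.82 for the second (10414950). Their adjusted p values were 0.0681 to 0.114. The lone array of a genotype was assumed to vary like the pair of the other genotype. B cell markers were highest on WT replicate 1, and without that array the 3 changes were 3.86, 3.96 and 1.82. The part of B cells or other admixed cells in these changes was not tested.

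**Figure D4:**
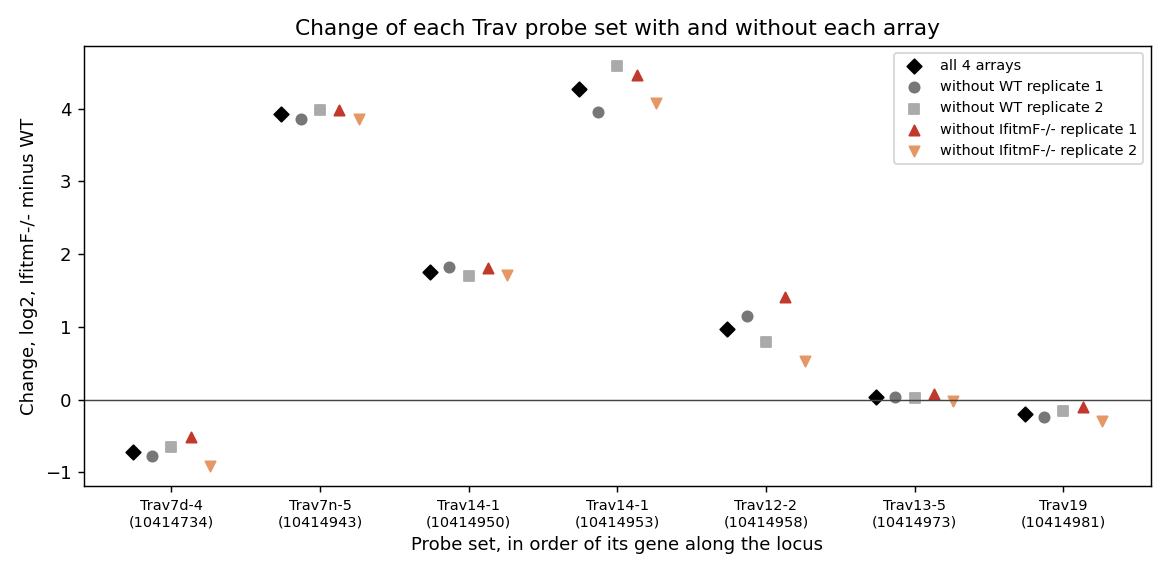
Change (y axis, log2, IfitmF-/- minus WT) of each Trav probe set (x axis, in the order of the genes along the locus) on all 4 arrays (black diamonds) and with each array left out in turn (other symbols). Trav7n-5 stays between 3.86 and 3.98, whereas Trav12-2 moves between 0.53 and 1.41.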

How the data were processed

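The authors deposited RMA intensities on the linear scale for 4 Affymetrix Mouse Gene 1.0 ST arrays. RMA removes background, brings the arrays to 1 distribution and condenses probes into probe sets, so a change is relative to the whole array. RMA and affy are listed in the submitters' processing notes, without a version. Median intensity was 74.8 to 78.1. Precision is set by the small number of arrays (residual degrees of freedom 2, prior 2.39). Log2 values of all 34760 probe sets were fitted at once by limma 3.58.1 under R 4.3.3, using lmFit and eBayes without covariates. Benjamini-Hochberg adjustment covered all probe sets, and a call needed an adjusted p under 0.05.

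Names came from a platform annotation, updated by gene ID, in which 21640 probe sets have 1 gene, 1321 have several and 11799 have no gene. All 7 members were found in a GRCm38.p6 gene table, used for gene order. Every Trav probe set of 1 gene was described, and up to 4 members of smallest p were named from other lists. Outside that rule, Rag1, Rag2, Dntt and Ptcra were also named, as were some cell type markers. Members and lists were chosen with earlier results of these data known. Alternatives changed the eBayes prior, the scaling, the probe sets tested, the replicate block, the test (a plain t-test), the further filter and the arrays included.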

Additional observations from a re-analysis of the deposited data

How the results depend on the processing

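The 3 calls and 0 falls among the Trav probe sets were the same counts with trend or robust eBayes, renewed quantile normalization and median centring. Testing fewer probe sets added 1 fall, that of Trav7d-4, both without dim probe sets (1) and with probe sets of 1 gene (1). Over the alternatives that keep all 4 arrays the adjusted p of Trav7d-4 was 0.0404 to 0.302. The further filter on fold and range left 2 of the 3 calls and 403 of the 2930 probe sets called in all. A plain t-test, with equal variances and no moderation, called 6811 probe sets at an unadjusted p under 0.05. After Benjamini-Hochberg adjustment it called 4 in all, 0 Trav probe sets and 0 of the 10 probe sets of the Ifitm and sex-linked genes, all of which limma called. Probe sets of several Trav genes were called 4 times, 7 times with trend eBayes or without dim probe sets, 5 with median centring, 1 with the crossed block, and 0 with the replicate block, the adjusted t-test or the further filter.

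Replicate numbers are shared by the genotypes, but deviations of same-numbered arrays from their group means correlated at -0.12, with 1 pair per number, so the numbers were not read as pairs. With the replicate number as a block, 0 probe sets, 0 Trav probe sets and 0 of the 10 Ifitm and sex-linked probe sets were called. With the crossed pairing (crossed block), chosen after seeing the data, 975 probe sets and 3 Trav probe sets were called. Leaving out each array gave 0 calls in each count, and a median Trav change of 0.53 to 1.41. Trav13-5, at 0.030 on all arrays, ranged from -0.024 without IfitmF-/- replicate 2 to 0.083 without IfitmF-/- replicate 1. The cause of these differences was not tested.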
